A study of Mus musculus with 3 samples.

Results

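The genes of the mouse major histocompatibility complex (MHC) and of antigen presentation were followed through the cell classes of ectopic tissue masses. They were 45 of the 31053 genes measured, chosen by name with earlier results of these data known. The list held the 34 symbols that start with H2-, and Cd74, Ciita, B2m, Tap1, Tap2, Tapbp, Psmb8, Psmb9, Psmb10, Nlrc5 and Cd1d1. Of these genes, 39 lie on chromosome 17 between positions 33915899 and 37483552 of mm10, where the mouse MHC is. Together they gave 1.571% of all unique molecular identifiers (UMIs, tags that each mark 1 captured molecule). UMIs were found for 37 of the 45; 8 distant class I genes (H2-M1, H2-M10.1 to H2-M10.6 and H2-M11) had 0.

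The masses came from CD1 mice, an outbred stock, and were taken on day 5 after implantation. There were 3 droplet single-cell RNA libraries, 1 per group. The Matrigel group received Matrigel, a basement membrane gel, with nothing added. The IgG group received Matrigel with rhBMP2, recombinant human bone morphogenetic protein 2, which drives ectopic bone, and was given pre-immune control IgG systemically. The antibody group received the same rhBMP2 implant and was given nAct Ab, an antibody that neutralizes activin A. For the Matrigel group no IgG is named, so wherever it is set against the IgG group the effects of rhBMP2 and of IgG cannot be told apart. How many animals each library came from is not stated in the labels. With 1 library per group no test was possible, and every interval below is an exact 95% interval that covers counting error only.

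Class I molecules, made of a heavy chain such as H2-K1 or H2-D1 and the light chain B2m, are carried by nearly all nucleated cells and display peptides from inside the cell. The proteasome subunits Psmb8, Psmb9 and Psmb10 cut these peptides, the Tap1-Tap2 transporter carries them into the endoplasmic reticulum, and Tapbp (tapasin) helps load them. Class II molecules, made of H2-A and H2-E alpha and beta chains, are mostly kept to dendritic cells, B cells and macrophages and display peptides from material taken up, with Cd74, H2-DM and H2-O acting in their loading. Ciita is the master activator of class II genes and Nlrc5 its counterpart for class I; interferon gamma raises both classes.

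Mesenchymal cells were those with at least 1% of their UMIs from Col1a1, Col1a2 and Col3a1. The other cells were called T, B or dendritic cells from at least 2 markers of each type, and macrophages where Csf1r or Adgre1 was detected and no other type was met; no MHC gene entered these rules. In the order Matrigel, IgG and antibody, which is kept below, this gave 1982, 1478 and 592 mesenchymal cells, 5531, 3036 and 2958 macrophages, 176, 155 and 92 dendritic cells, 75, 216 and 873 T cells, and 1, 6 and 498 B cells. B cells are therefore described in the antibody library only. Median UMIs per cell were 8752 to 19186 in mesenchymal cells, 3073 to 4811 in macrophages, 3927 to 8463 in dendritic cells and 1329 to 2280 in T cells. Markers that had no part in the rules went with the names: 6 macrophage genes summed to 8327 to 10969 CPM (UMIs scaled to the same fixed total in each class and library) in macrophages and 53.5 to 112 in mesenchymal cells, and 6 dendritic genes to 1424 to 3833 in dendritic cells and 300.3 to 381 in macrophages. The dendritic class also held macrophage genes at 1029, 2312 and 2213 CPM. From 72 to 229 cells per library had between 0.5% and 2% collagen UMIs, and 7 to 19 barcodes were shared between a pair of libraries.

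The library labelled IgG stood apart in a single class II gene, H2-Eb1, the beta chain of H2-E. In macrophages, H2-Eb1 UMIs per H2-Ab1 UMI were 0.783, 0.222 and 0.811. In dendritic cells they were 0.673, 0.146 and 0.838, so the IgG library was low in both classes. Among macrophages with at least 30 UMIs of H2-Aa and H2-Ab1, a limit set after the values were seen, H2-Eb1 made up under 5% of the H2-Aa, H2-Ab1 and H2-Eb1 UMIs in 1 of 2111 cells of the Matrigel library, 523 of 1001 of the IgG library and 3 of 937 of the antibody library. In the IgG library a further 37 cells lay between 5% and 10% and 441 at 10% or more, so its cells fell into a group nearly without H2-Eb1 and a group with it. The H2-Eb1-low group had no H2-Eb1 UMI at all in 227 cells. Dendritic cells of the IgG library split the same way, with 73 of 113 under 5%, 5 between and 35 at 10% or more. CD1 mice are outbred and the number of animals behind a library is not stated, so whether these groups were cells of different animals or of different H2 alleles was not tested, and such a difference between animals cannot be told apart from the treatment. Class II sums, quotients and shares are therefore given below also without H2-Eb1, and the counts of macrophage genes also with each IgG group alone.

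**Figure D1:**
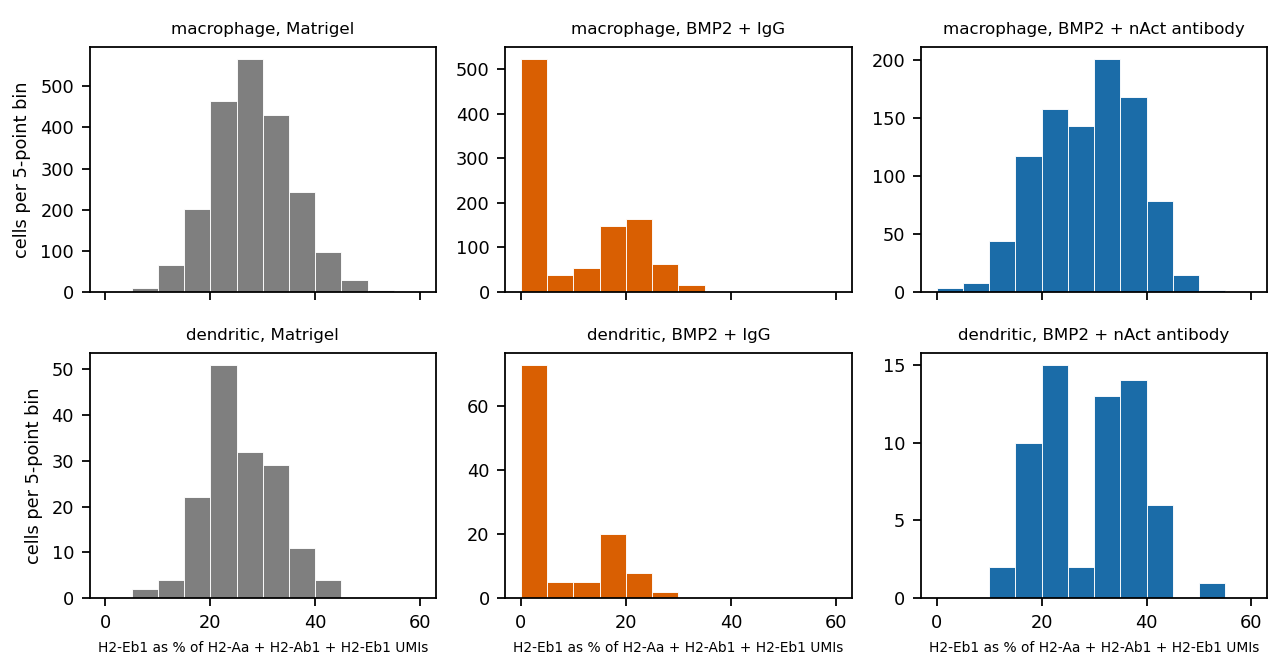
H2-Eb1 as a percentage of the UMIs of H2-Aa, H2-Ab1 and H2-Eb1 (x axis) against the number of cells per 5-point bin (y axis) in macrophages (top) and dendritic cells (bottom) with at least 30 H2-Aa and H2-Ab1 UMIs, for each library. In the IgG library 523 of 1001 macrophages sit in the lowest bin, against 1 of 2111 and 3 of 937 in the other libraries.

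The H2-Eb1-low and H2-Eb1-containing macrophages of the IgG library also differed in other genes. H2-D1 was at 4014 CPM in the low group and 2033 in the other, and H2-Q6, a class I gene of the Q region, at 33.5 and 9.43 CPM. H2-T24, of the T region, went the other way, at 0.621 and 7.19 CPM, from 2 and 16 UMIs. Arg1, an arginase of alternatively activated macrophages and no MHC gene, was at 1355 CPM in the low group and 69.2 in the other. Retnla, another gene of such macrophages, went the opposite way, at 859 and 2118 CPM. Chil3, with 120 and 1 UMIs, and Hbb-bs, with 1454 and 39, were higher in the low group. Ifit3, with 26 and 228 UMIs, and Mucl1, with 0 and 129, were lower there. Of 29 measured MHC genes, 5 were at least 1.5-fold higher in the low group, where 17.6% of all genes were. Another 3 were at least 1.5-fold lower, where 6.78% of all genes were, but H2-Eb1 and H2-Aa among them set the grouping itself, so nothing is read from that count; the third was H2-T24.

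The start regions of the genes on which these results turn are shown for the boxes that class I and class II promoters share. Each is the 120 bases before the RefSeq start on GRCm38.p6, read 5′ to 3′ on the gene's strand. Capitals mark ATTGG, the core of the Y box, its reverse complement CCAAT, or CCTAGNNAC, the form of the X box that was searched.
H2-Aa (chr17:34287824-34287943, minus strand): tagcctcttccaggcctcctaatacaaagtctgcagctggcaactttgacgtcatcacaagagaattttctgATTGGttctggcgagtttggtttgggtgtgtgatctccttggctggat
H2-Eb1 (chr17:34305747-34305866, plus strand): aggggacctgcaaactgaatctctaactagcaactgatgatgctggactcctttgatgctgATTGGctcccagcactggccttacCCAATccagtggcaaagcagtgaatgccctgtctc
H2-Ob (chr17:34238785-34238904, plus strand): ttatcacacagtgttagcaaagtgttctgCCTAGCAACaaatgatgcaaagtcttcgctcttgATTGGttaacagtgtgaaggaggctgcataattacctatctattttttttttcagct
H2-K1 (chr17:34000348-34000467, minus strand): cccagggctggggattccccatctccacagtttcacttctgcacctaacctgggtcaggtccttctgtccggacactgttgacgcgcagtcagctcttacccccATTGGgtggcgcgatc
H2-Q6 (chr17:35424730-35424849, plus strand): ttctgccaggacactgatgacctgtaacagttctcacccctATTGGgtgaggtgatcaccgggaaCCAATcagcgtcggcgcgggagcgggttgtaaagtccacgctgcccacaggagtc
H2-Q7 (chr17:35439035-35439154, plus strand): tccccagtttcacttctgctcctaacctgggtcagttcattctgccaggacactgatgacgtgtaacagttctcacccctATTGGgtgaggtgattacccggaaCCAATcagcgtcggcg
B2m (chr2:122147567-122147686, plus strand): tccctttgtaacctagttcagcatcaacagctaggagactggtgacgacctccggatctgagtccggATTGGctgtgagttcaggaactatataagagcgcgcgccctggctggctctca
Of the 45 genes, 37 had a start region in the RefSeq table. On either strand, ATTGG occurred in 29 of the 37, among them 19 of 22 class I heavy chain genes and 7 of 8 class II and class II chaperone genes, and in 21.3% of all 32851 start regions of the same length. CCTAGNNAC occurred in 3 (H2-Ob, H2-DMb1 and H2-Ke6) and in 1.80% of all. For the interferon response element only 1 form was searched: TTTC, 2 bases of any kind and TTTC. It occurred in 0 and in 1.22%. The H2-K1 and H2-Q7 regions above hold tttcacttct, which this form does not match, so the 0 does not show that other forms are absent. H2-Q6 and H2-Q7 share a run of 34 bases here, as near copies of each other. Reads of near-identical genes can be divided or lost in counting, so the values of H2-K1, H2-D1 and the Q and T region genes, and of H2-DMb1 against H2-DMb2, are uncertain as to which copy they come from.

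Class I and class II were spread over the cell classes in different ways. H2-K1 and H2-D1 together were at 964, 603 and 642 CPM in mesenchymal cells, 3882, 4683 and 4514 in macrophages, 3646, 4652 and 4018 in dendritic cells and 4442, 5457 and 4749 in T cells, and at 3215 CPM in B cells of the antibody library. Macrophages, dendritic cells and T cells thus lay within a narrow range in each library and mesenchymal cells well under them. H2-Aa, H2-Ab1 and H2-Eb1 together were at 32691, 18752 and 20383 CPM in dendritic cells, 12806, 8903 and 8382 in macrophages, 1259, 207 and 370 in T cells and 142, 52.3 and 47.8 in mesenchymal cells, and at 10646 CPM in B cells of the antibody library. The order was dendritic cells, then macrophages, then T cells, then mesenchymal cells in all 3 libraries, with B cells between dendritic cells and macrophages in the antibody library. The counting intervals of neighbours in this order did not overlap. Without H2-Eb1 the order was the same, with dendritic cells at 24078, 17234 and 14143 CPM, B cells at 8072, macrophages at 9190, 7897 and 5906, T cells at 826, 187 and 284 and mesenchymal cells at 101, 46.4 and 32.2.

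The quotient of class II to class I UMIs put the same contrast in 1 number per class. It was 8.97, 4.03 and 5.07 in dendritic cells and 3.30, 1.90 and 1.86 in macrophages, and 3.31 in B cells. In T cells it was 0.283, 0.0380 and 0.0779, and in mesenchymal cells 0.148, 0.0867 and 0.0745. The Matrigel library had the highest quotient in each of the 4 classes it could be compared in. Without H2-Eb1 the quotient was 6.605, 3.70 and 3.52 in dendritic cells, 2.37, 1.69 and 1.31 in macrophages and 2.51 in B cells. The Matrigel library stayed highest, whereas the order of the BMP2 libraries in dendritic cells turned around.

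In single cells thinned to 1000 UMIs each, a class II UMI was found in 98.8%, 90.7% and 85.6% of dendritic cells and in 70.0%, 63.6% and 61.7% of macrophages, and in 99.6% of B cells. The share was 11.8%, 6.47% and 8.10% in T cells, the type that should lack class II in the mouse. In mesenchymal cells it was 7.53%, 4.51% and 5.36%, under the T cell share in each library. The counting intervals of the T and mesenchymal shares overlapped in each library, and the Matrigel T cell share rested on 51 cells. Without H2-Eb1 the shares were 97.7%, 89.3% and 77.8% in dendritic cells, 68.3%, 63.9% and 60.7% in macrophages (from a separate random draw), 9.80%, 3.48% and 5.71% in T cells and 5.70%, 3.53% and 3.81% in mesenchymal cells, the last at the T cell share in the IgG library and under it in the others. Here too the T and mesenchymal intervals overlapped in each library. Thinning left out 70, 35 and 14 mesenchymal cells, 233, 113 and 82 macrophages, 6, 5 and 2 dendritic cells, 24, 15 and 33 T cells and 27 B cells. Without thinning the shares were 38.1%, 40.7% and 40.9% in mesenchymal cells, 79.8%, 73.9% and 74.7% in macrophages, 98.9%, 91.6% and 94.6% in dendritic cells and 16%, 13.9% and 14.7% in T cells. Class I UMIs were found in 58.3%, 41.0% and 45.7% of thinned mesenchymal cells and in 93.9%, 96.2% and 97.3% of thinned macrophages.

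Class II UMIs in mesenchymal cells moved with markers of macrophages. H2-Aa in mesenchymal cells was 1.14%, 0.541% and 0.421% of its macrophage level, H2-Ab1 1.06%, 0.622% and 0.663%, H2-Eb1 1.15%, 0.583% and 0.630%, and Cd74 1.06%, 0.577% and 0.572%. The complement genes C1qa, C1qb and C1qc, which macrophages make, were at 0.956%, 0.531% and 0.527% of their macrophage level there. From 31.2% to 54.9% of the H2-Aa, H2-Ab1 and H2-Eb1 UMIs of mesenchymal cells came from 10 cells of each library. Whether the H2-Aa, H2-Ab1, H2-Eb1 and Cd74 UMIs were made by mesenchymal cells or came from macrophages was not tested. Their values are therefore not read as mesenchymal levels. H2-DMa did not move with the complement genes, at 1.36%, 1.30% and 1.39% of its macrophage level, and its source was not tested either. Class I differed from this, as H2-K1 was at 34.1%, 17.04% and 22.7% and B2m at 30.3%, 14.5% and 17.8% of the macrophage level.

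In mesenchymal cells the class I heavy and light chains were lower in both BMP2 libraries than in the Matrigel library. H2-D1 was at 602, 348 and 379 CPM, H2-K1 at 362, 255 and 263 CPM and B2m at 749, 419 and 562 CPM. Heavy chains together were 1.60-fold lower (interval 1.57 to 1.63) in the IgG than in the Matrigel library, and B2m 1.79-fold lower (1.75 to 1.83). The antibody library was 1.07 times the IgG library for the heavy chains (1.04 to 1.09) and 1.34 times for B2m (1.30 to 1.38). When each cell was given equal weight the heavy chain ratio of antibody to IgG was 1.34. The median depth of mesenchymal cells moved with these levels, from 8752 UMIs in the Matrigel library to 17191 and 19186; its part in them was not tested. Over all macrophages, H2-K1 and H2-D1 together were 1.21 times as high in the IgG as in the Matrigel library (1.19 to 1.22), opposite to mesenchymal cells. For H2-D1 this direction depended on the H2-Eb1 groups. Among macrophages with at least 30 H2-Aa and H2-Ab1 UMIs, IgG cells at 10% H2-Eb1 or more had H2-D1 at 0.771 times Matrigel (0.746 to 0.796). H2-K1 was at 1.26 times there (1.20 to 1.32).

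Not every class I gene of mesenchymal cells followed H2-D1. H2-T22, a T region class I gene whose product is a ligand of gamma-delta T cells, was at 29.7, 15.03 and 25.6 CPM, low in the IgG library alone. H2-Q7, which encodes a Qa-2 antigen, was at 12.4, 19.7 and 23.5 CPM, higher in both BMP2 libraries. Psmb9 was at 12.1, 18.9 and 17.1 CPM and Psmb8 at 36.3, 45.7 and 47.9, also higher there, the latter within 1.5-fold, while Tap1 was at 25.2, 36.3 and 27.7 CPM. Tapbp was at 126, 104 and 98.4 CPM, Tap2 at 32.0, 28.5 and 25.8 and Psmb10 at 28.8, 31.1 and 29.4, each within 1.5-fold in both comparisons.

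Counted over all measured members, mesenchymal cells stood near the background of all genes. A gene was counted as measured from 10 UMIs in 1 of the libraries compared, and as higher or lower from a ratio of 1.5. From Matrigel to IgG, 5 of 29 measured members were higher, where 16.6% of all genes were, and 8 were lower, where 21.1% of all genes were; for both directions together these were 13 of 29 and 37.7%. The 8 were H2-D1, B2m, H2-T22, Cd1d1, and H2-Aa, H2-Ab1, H2-Eb1 and Cd74, whose source in these cells was not tested. From IgG to antibody, 4 were higher, where 9.9% of all genes were, and 6 were lower, where 12.7% were (10 of 29 and 22.6% in both directions). The 4 were H2-Q4, H2-Q6, H2-T22 and H2-Eb1. The 6 were H2-Aa, H2-DMb1, Ciita (33 and 8 UMIs), H2-Oa (14 and 0), H2-Q1 (11 and 3) and H2-Q2 (14 and 4). The source of the class II genes among them in these cells was not tested.

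In macrophages the peptide-processing genes of the class I pathway were higher in the IgG than in the Matrigel library, by ratios of 1.65 to 2.36. Psmb8 was at 175, 413 and 389 CPM, a ratio of IgG to Matrigel of 2.36 (2.26 to 2.46). Psmb9 was at 108, 219 and 241 CPM (ratio 2.02, interval 1.91 to 2.14) and Psmb10 at 111, 213 and 193 CPM (1.92, interval 1.81 to 2.03). These 3 subunits replace the catalytic subunits of the standard proteasome to form the immunoproteasome, and in macrophages all 3 lay above the ratio of 1.5. The antibody library kept the level, with a ratio of antibody to IgG of 0.974 (0.950 to 0.998) for the 3 subunits together.

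The transporter and loading genes of macrophages went the same way as the immunoproteasome. Tap1 was at 63.2, 148 and 127 CPM, with a ratio of IgG to Matrigel of 2.34 (2.17 to 2.51). Tap2 was at 55.9, 104 and 108 CPM (1.85, interval 1.71 to 2.01) and Tapbp at 187, 308 and 344 CPM (1.65, interval 1.58 to 1.73). B2m, by contrast, was at 2471, 2885 and 3164 CPM, a ratio of 1.17 (1.15 to 1.18). The heavy chains were in between or near B2m, with H2-K1 at 1062, 1495 and 1161 CPM (1.41, interval 1.38 to 1.44) and H2-D1 at 2820, 3188 and 3352 CPM (1.13, interval 1.12 to 1.15). Over all macrophages H2-K1 was highest in the IgG library, whereas H2-D1 was highest in the antibody library. In class II-rich cells both genes moved with the H2-Eb1 groups. The antibody library had H2-K1 at 0.7595 and H2-D1 at 0.814 times the H2-Eb1-low IgG cells. Against the IgG cells at 10% H2-Eb1 or more these ratios were 1.10 and 1.61. The regulator Nlrc5 was at 15.7, 34.0 and 27.6 CPM, 2.16 times as high in the IgG as in the Matrigel library (1.87 to 2.51).

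**Figure D2:**
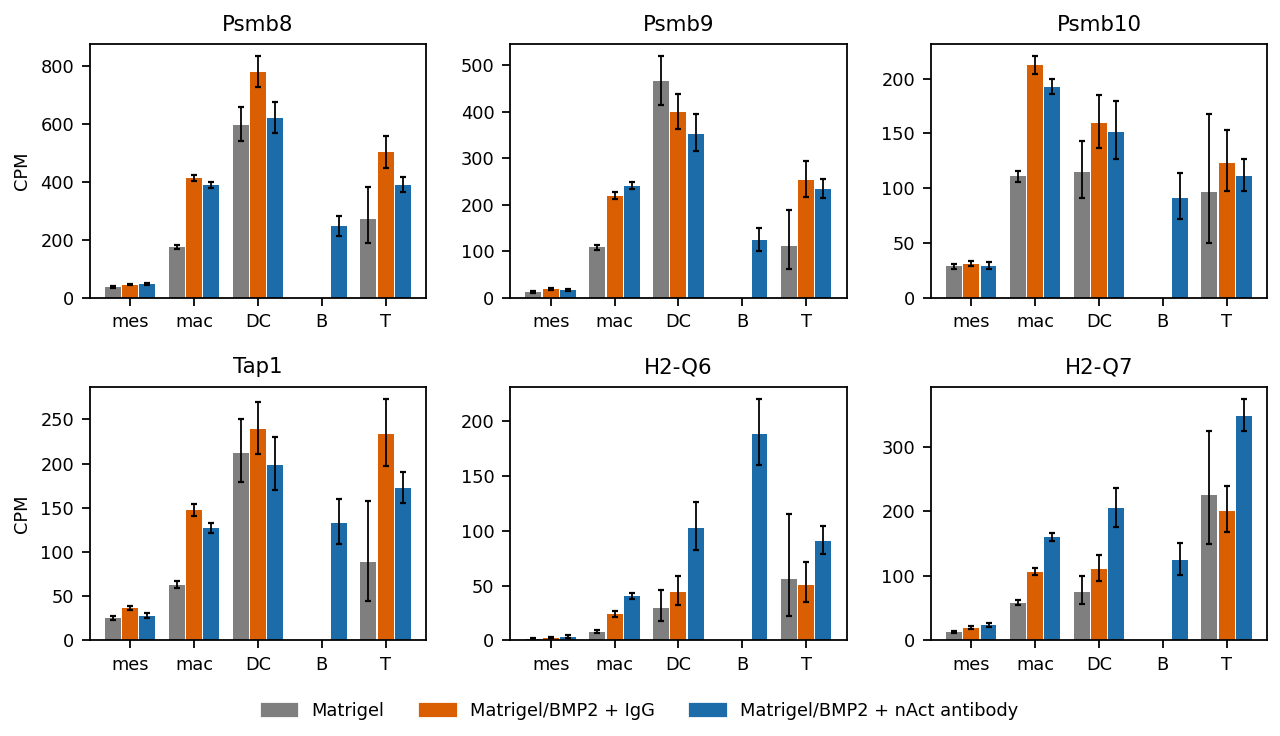
CPM of the peptide-processing and loading genes of class I in mesenchymal cells (mes), macrophages (mac), dendritic cells (DC), B cells and T cells of each library, with exact 95% counting intervals on a linear axis from 0. Psmb8 in macrophages sits at 175 in the Matrigel library and at 413 and 389 in the BMP2 libraries, while dendritic cells hold 596, 779 and 620.

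Of 32 members measured in macrophages, 14 were higher in the IgG than in the Matrigel library, where 12.6% of all genes were, and 3 were lower, where 13.7% were (17 of 32 and 26.3% in both directions). The median log2 ratio of the members was 0.49, against -0.01 over all genes. The 14 were Tap1, Tap2, Tapbp, the 3 immunoproteasome subunits, Nlrc5, H2-Q6, H2-Q7, H2-T23, H2-T24, H2-M2, H2-Oa and H2-Ob, and the 3 were H2-Eb1, Cd1d1 and H2-Q10. Limited to class II-rich macrophages (30 or more H2-Aa and H2-Ab1 UMIs), the same 14 were higher with all IgG cells. With all IgG cells, 18 of 31 measured members were higher, where 11.5% of all genes were, and 3 lower, where 12.4% were (23.9% in both directions). With either IgG group alone, H2-Oa had under 10 UMIs on both sides (7 in Matrigel, 9 in the H2-Eb1-low cells and 4 in the others) and was not measured. Of the other 13, 12 were higher with the H2-Eb1-low cells, all but H2-T24 (ratio 0.501, interval 0.0534 to 2.35, from 10 and 2 UMIs). Over all members, 17 of 30 measured were higher there, where 14.5% of all genes were. With the IgG cells at 10% H2-Eb1 or more 12 of these 13 were higher, all but H2-Q6 (ratio 1.41, interval 0.808 to 2.37). Over all members, 14 of 30 measured were higher there, where 8.29% of all genes were. These 13 had been picked as higher over all macrophages, which include these cells, so their counts here are not independent of that choice. Psmb8, for example, was at 190 CPM in class II-rich Matrigel macrophages, 561 in the H2-Eb1-low IgG cells and 401 in the others. H2-D1 went in different directions in the H2-Eb1 groups: relative to Matrigel it was 1.52 times as high in the H2-Eb1-low IgG cells and 0.771 times in the other IgG cells.

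The class I genes outside H2-K1 and H2-D1 were higher in both steps in several cases. H2-Q7 in macrophages was at 58.5, 106 and 161 CPM, and the related H2-Q6 at 7.67, 23.6 and 40.5 CPM. H2-Q4, also of the Q region, was at 26.6, 37.4 and 49.9 CPM. H2-Q4, H2-Q6 and H2-Q7 together were 1.80 times as high in the IgG as in the Matrigel library (1.69 to 1.92) and 1.498 times as high in the antibody as in the IgG library (1.42 to 1.58). This second step was also seen for the sum in dendritic cells, with a ratio of 1.95 (1.63 to 2.34), in T cells, with 1.84 (1.58 to 2.16), and in mesenchymal cells, with 1.30 (1.15 to 1.47). In macrophages it moved with the H2-Eb1 groups: in class II-rich cells, H2-Q6 and H2-Q7 were at least 1.5-fold higher in the antibody library than in the IgG cells at 10% H2-Eb1 or more, but not than in the H2-Eb1-low IgG cells.

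H2-T23, which encodes Qa-1, a ligand of natural killer cell receptors, was at 91.6, 139 and 150 CPM in macrophages. H2-M3, which presents formylated peptides, was at 55.0, 75.04 and 85.6 CPM, and H2-T22 at 21.3, 27.1 and 40.0 CPM. H2-M2 was found in macrophages and dendritic cells, and in 0, 2 and 0 UMIs of mesenchymal cells. It was at 1.04, 12.7 and 9.61 CPM in macrophages, from 20, 169 and 163 UMIs, and at 23.6, 159 and 108 CPM in dendritic cells, from 16, 173 and 96 UMIs. Its ratio of IgG to Matrigel was 12.2 (7.64 to 20.4) in macrophages and 6.76 (4.04 to 12.1) in dendritic cells. Class II-rich cells held 19, 167 and 159 of its macrophage UMIs, so it was not spread over macrophages at large. In class II-rich dendritic cells the ratio was 15.5 (8.18 to 33.1) with the H2-Eb1-low IgG cells, from 134 UMIs. With the IgG cells at 10% H2-Eb1 or more it was 3.31 (1.34 to 8.43), from 13 UMIs. No H2-M2 UMI was found in T cells of any library or in B cells. Cd1d1, which presents lipids to natural killer T cells, was at 12.5, 3.84 and 3.13 CPM in macrophages, 3.25-fold lower (2.40 to 4.49) in the IgG than in the Matrigel library.

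Class II chains of macrophages were highest in the Matrigel library. H2-Aa was at 4572, 3367 and 2854 CPM, H2-Ab1 at 4617, 4530 and 3052 and H2-Eb1 at 3616, 1007 and 2476. The 3 chains together were 1.44-fold lower (1.43 to 1.45) in the IgG than in the Matrigel library and 1.06-fold lower (1.05 to 1.07) in the antibody than in the IgG library. Without H2-Eb1 the sizes changed places: H2-Aa and H2-Ab1 were 1.16-fold lower (1.16 to 1.17) from Matrigel to IgG and 1.34-fold lower (1.33 to 1.35) from IgG to antibody. Over all macrophages both steps kept their direction, but which of them was larger depended on H2-Eb1. In class II-rich cells the steps also moved with the H2-Eb1 groups. With IgG cells at 10% H2-Eb1 or more, H2-Aa was 0.9625 and H2-Ab1 1.059 times Matrigel, and with H2-Eb1-low cells 0.590 and 0.907 times. The antibody library had H2-Aa at 1.16 times the H2-Eb1-low IgG cells and 0.711 times the others. These genes entered the choice of the cells, so the values are not independent of it. H2-Eb2, a poorly expressed relative of H2-Eb1, gave 5, 0 and 3 UMIs in macrophages and 1, 6 and 3 in dendritic cells, and 24 UMIs (28.7 CPM) in B cells.

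Per macrophage, class II ranged widely, and many cells had no UMI of it. In cells thinned to 1000 UMIs, the lower quartile was 0 in each library, the median 8, 3 and 2 class II UMIs, and the upper quartile 26, 15 and 14. Of these macrophages, 47.0%, 33.5% and 32.3% had 10 or more class II UMIs. The share with at least 1 was 70.0%, 63.6% and 61.7%, so the Matrigel library differed more from the others at 10 UMIs than at 1. Without H2-Eb1 the median was 6, 3 and 2 UMIs, the upper quartile 18, 13 and 10, and 42.75%, 32.6% and 25.9% of macrophages had 10 or more, so that the IgG library lay between the others.

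**Figure D3:**
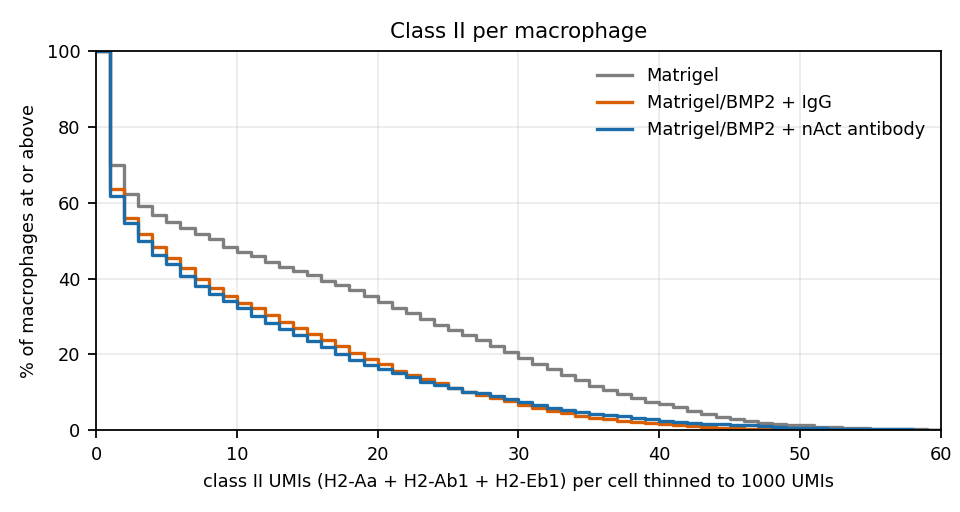
Percentage of macrophages (y axis) with at least a given number of class II UMIs (x axis) after thinning each cell to 1000 UMIs, for the 3 libraries. The Matrigel curve lies above the others, with 47.0% of its cells at 10 or more UMIs against 33.5% and 32.3%.

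The invariant chain and the peptide exchange genes did not follow the class II chains exactly. Cd74, the invariant chain, was at 10384, 10533 and 8206 CPM in macrophages, a ratio of 1.01 (1.01 to 1.02) from Matrigel to IgG and 0.779 (0.773 to 0.785) from IgG to antibody. Cd74 UMIs per H2-Ab1 UMI were 2.25, 2.33 and 2.69. H2-DMa was at 826, 738 and 623 CPM and H2-DMb2 at 62.6, 55.0 and 44.7, lowest in the antibody library like H2-Aa. H2-DMb1 was at 231, 332 and 235 CPM, high in the IgG library alone; H2-DMa pairs with the DMb chains to exchange peptides on class II.

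H2-O, which restrains H2-DM, was scarce in macrophages. H2-Ob was at 4.44, 12.3 and 2.30 CPM there, from 85, 164 and 39 UMIs, and H2-Oa at 0.679, 1.96 and 1.06 CPM, from 13, 26 and 18 UMIs. H2-Ob was 2.78 times as high (2.13 to 3.66) in the IgG as in the Matrigel library and 5.36-fold lower (3.76 to 7.81) in the antibody than in the IgG library. In dendritic cells both genes were higher and in another order, with H2-Ob at 232, 109 and 31.6 CPM and H2-Oa at 148, 46.1 and 26.0. Both were thus lower in the IgG than in the Matrigel library in dendritic cells.

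Ciita, the class II activator, was at 124, 140 and 74.7 CPM in macrophages. It was 1.13 times as high (1.06 to 1.20) in the IgG as in the Matrigel library and 1.87-fold lower (1.74 to 2.01) in the antibody than in the IgG library. Dendritic cells had it at 528, 458 and 233 CPM, with the same step of 1.97-fold (1.67 to 2.33) from IgG to antibody. B cells held 342 CPM and T cells 32.1, 3.07 and 6.13, from 4, 2 and 13 UMIs.

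From IgG to antibody, 6 of 33 members measured in macrophages were higher, where 6.75% of all genes were, and 3 were lower, where 12.2% were (9 of 33 and 19% in both directions). Those higher were H2-Eb1, H2-Q6, H2-Q7, H2-Q1, H2-Q2 and H2-Q10, of which the last 3 had at most 30 UMIs in either library. Those lower were Ciita, H2-Ob and H2-Oa. In class II-rich cells, H2-Q1, H2-Q2 and H2-Q10 had 6, 9 and 9 UMIs in the antibody library and at most 3 in either IgG group, and were not measured there. H2-Q6 and H2-Q7 were higher against the IgG cells at 10% H2-Eb1 or more, at ratios of 4.39 (2.81 to 7.20) and 2.34 (1.97 to 2.79), and within 1.5-fold of the H2-Eb1-low cells, at 1.23 (0.984 to 1.56) and 1.41 (1.25 to 1.59). H2-Eb1 was within 1.5-fold of the IgG cells at 10% or more (ratio 1.12, interval 1.10 to 1.15); that it was higher than in the H2-Eb1-low cells follows from how these were chosen. Ciita and H2-Ob were lower against either group, with ratios of 0.544 and 0.174 against the H2-Eb1-low cells and 0.6235 and 0.350 against the others.

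**Figure D4:**
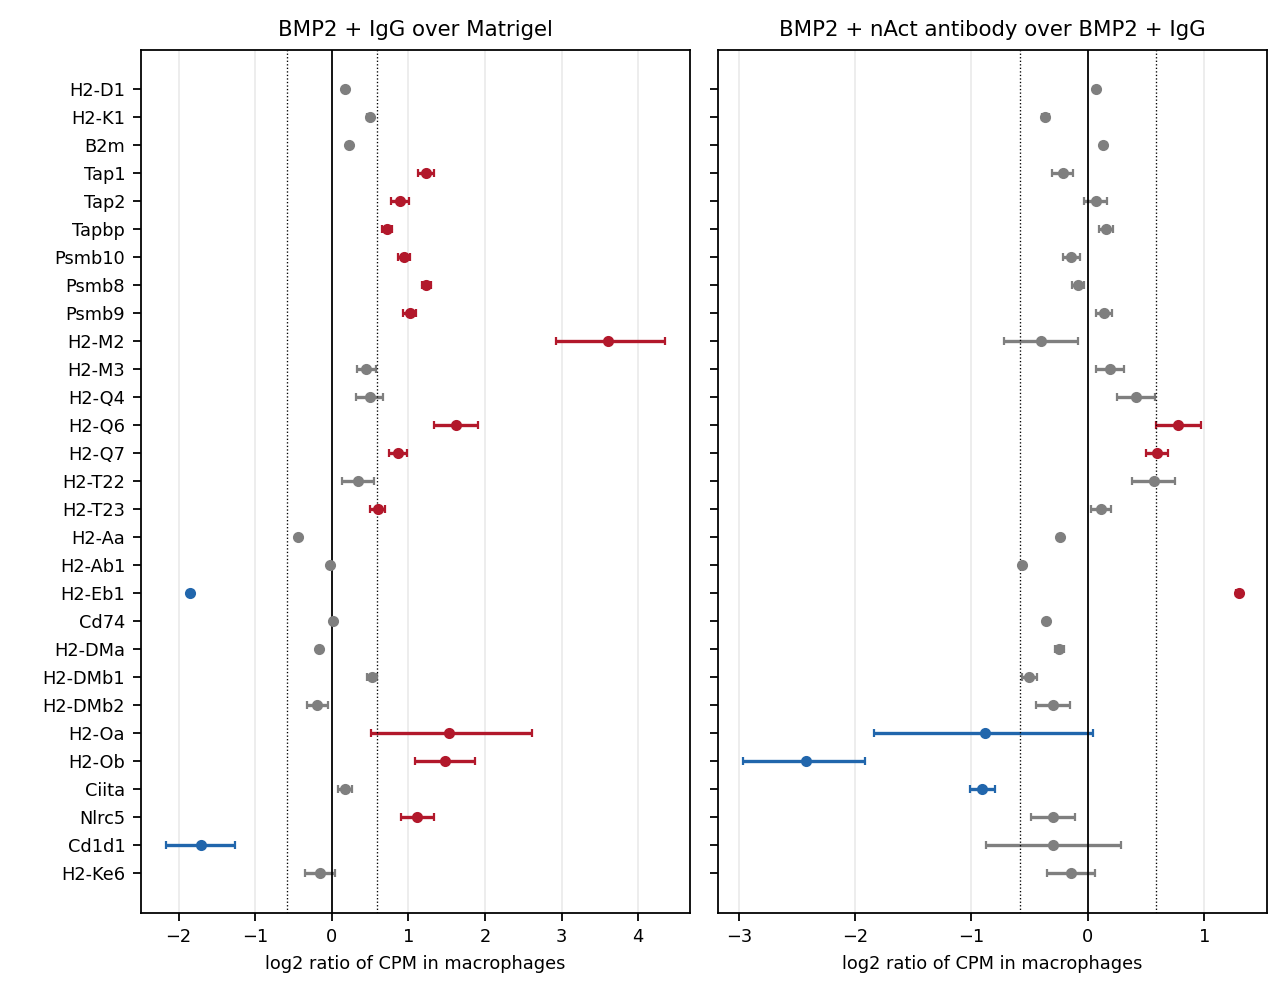
Log2 ratio of CPM in macrophages for the members measured (y axis), from Matrigel to IgG and from IgG to antibody, with exact 95% counting intervals. The immunoproteasome and Tap genes lie to the right of 0 in the first panel (Psmb8 at 1.24, Tap1 at 1.22) and near 0 in the second (-0.09 and -0.22), while H2-Eb1 changes sides (-1.85 and 1.30).

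Genes that act with the pathway but do not belong to the 45 were followed as a list of 25. In macrophages, 24 were measured, of which 8 were higher, where 12.6% of all genes were, and 0 lower, where 13.7% were, in the IgG than in the Matrigel library. Those higher included Tapbpl, Psme1, Psme2, Ctss, Irf1, Socs1 and Cd40. Psme2, a proteasome activator subunit, was at 124, 304 and 302 CPM, and Irf1, an interferon-regulated factor, at 76.2, 145 and 136. Socs1, an inhibitor of cytokine signalling, was at 15.03, 72.7 and 44.6 CPM. From IgG to antibody, 2 of the list were lower, Socs1 among them, where 12.2% of all genes were, and 1 was higher, where 6.75% were: Ctsl, a lysosomal protease, at 423, 438 and 753 CPM. Ifng, which encodes interferon gamma, was at 80.2, 206 and 51.8 CPM in T cells, from 10, 134 and 110 UMIs.

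Dendritic cells had the highest class II levels. H2-Aa was at 11279, 6824 and 6694 CPM, H2-Ab1 at 12799, 10410 and 7449, and Cd74 at 24506, 20231 and 16957. Each was highest in the Matrigel library; H2-Ab1 and Cd74 were lowest in the antibody library, while H2-Aa differed there from the IgG library by no more than counting error (ratio 0.981, interval 0.948 to 1.02). H2-Eb1 was at 8613, 1518 and 6240 CPM, low in the IgG library as in macrophages. Macrophage markers in the dendritic class were lowest in the Matrigel library, where class II was highest, at 1029, 2312 and 2213 CPM. The dendritic marker Irf8 was at 2540, 1203 and 639 CPM. The part of this mix in the levels was not tested. Leaving out dendritic cells with Csf1r or Adgre1 gave class II sums of 33129, 16846 and 18707 CPM, with the Matrigel library still highest. The step from IgG to antibody in dendritic cells rested on H2-Eb1: the ratio of the class II sum was 1.09 (1.07 to 1.11) with it and 0.821 (0.802 to 0.840) without it. Without H2-Eb1 the sums were 24423, 15365 and 12809 CPM in cells with no Csf1r or Adgre1, and 24479, 20616 and 18213 CPM in cells with at least 3 dendritic markers.

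The summed immunoproteasome of dendritic cells lay above that of macrophages in the Matrigel library and nearer to it in the others. Psmb10 differed from the sum, at 115, 159 and 151 CPM in dendritic cells and 111, 213 and 193 in macrophages. The 3 immunoproteasome subunits together were at 1175, 1337 and 1124 CPM in dendritic cells and 394, 845 and 822 in macrophages. The ratio of IgG to Matrigel was 1.14 (1.04 to 1.24) in dendritic cells against 2.14 (2.08 to 2.21) in macrophages. H2-DMb2 was at 78.2, 213 and 166 CPM in dendritic cells, 2.72 times as high (2.01 to 3.74) in the IgG as in the Matrigel library, although it was within 1.5-fold in macrophages. Among dendritic cells with at least 30 H2-Aa and H2-Ab1 UMIs, this ratio differed between the H2-Eb1 groups. It was 4.25 (3.10 to 5.91) with the H2-Eb1-low IgG cells, from 187 UMIs. With the IgG cells at 10% H2-Eb1 or more it was 1.55 (0.957 to 2.47), from 31 UMIs. Of 28 members measured, 2 were higher from Matrigel to IgG, where 28.7% of all genes were, and 5 lower, where 13.3% were (41.9% in both directions). From IgG to antibody, 7 of 29 were higher, where 9.16% of all genes were, and 3 lower, where 18.1% were (27.3% in both directions). The 7 held H2-Eb1, Cd1d1 and the class I genes H2-Q4, H2-Q6, H2-Q7, H2-T22 and H2-T23.

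B cells of the antibody library had class II somewhat above the level of macrophages, with other levels of the partner genes. H2-Oa was at 222 CPM and H2-Ob at 390 CPM in the 498 B cells, against 1.06 and 2.30 CPM in macrophages of the same library. H2-DMb2 was at 371 CPM against 44.7, whereas H2-DMb1 was at 127 CPM against 235. Cd74 UMIs per H2-Ab1 UMI were 3.73 in B cells and 2.69 in macrophages. H2-Q6 UMIs per H2-Q7 UMI were 1.52 (1.18 to 1.97) in B cells and 0.252 (0.231 to 0.274) in macrophages.

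T cells had class I near the level of macrophages and little class II. H2-K1 was at 1772, 2027 and 1997 CPM and H2-D1 at 2670, 3431 and 2752. The class II UMIs of T cells came from few cells, as 10 cells per library held 83.8% to 100% of the H2-Aa, H2-Ab1 and H2-Eb1 UMIs. Tap1 was at 88.2, 233 and 172 CPM and Psmb9 at 112, 253 and 234, lowest in the Matrigel library, where they rested on 11 and 14 UMIs. H2-Q7 was at 225, 201 and 348 CPM and H2-T22 at 32.1, 62.9 and 122 CPM, highest in the antibody library. From Matrigel to IgG, 7 of 23 measured members were higher, where 25.9% of all genes were, and 6 lower, where 19.4% were (45.3% in both directions). The 6 were Cd74, H2-Aa, H2-Ab1, H2-Eb1, H2-DMa and H2-Q4. From IgG to antibody, 10 of 30 were higher, where 13.3% of all genes were, and 3 lower, where 24.2% were (37.5% in both directions). The 10 were H2-Ab1, H2-Eb1, H2-DMa, Ciita, H2-Q4, H2-Q6, H2-Q7, H2-T22, H2-Q1 (1 and 11 UMIs) and H2-Q2 (0 and 10 UMIs). As the class II chain UMIs came from few cells, the class II genes in these counts are not read as T cell levels.

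Over the 13 combinations of class and library with at least 50 cells, the genes whose log2(CPM + 1) went most closely with summed class II were Cd74 (Pearson r = 0.994), H2-DMa (0.989), Cd86 (0.985), Ciita (0.983) and March1 (0.982), out of 13522 genes. Cd86 encodes a costimulatory ligand and March1 a ubiquitin ligase that removes class II from the cell surface. The points share libraries and differ in depth, so these values are descriptions of 13 points. The last member, H2-Ke6, encodes a hydroxysteroid dehydrogenase named for its place in the MHC; it was at 29.8, 26.8 and 24.3 CPM in macrophages and 15.6, 11.7 and 10.8 in mesenchymal cells.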

How the data were processed

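Libraries were made with the 10x 3' v3 kit, per the labels' protocols. Cell Ranger 3.0.2 and the mm10 build are named in the submitters' processing notes; no label states the annotation release or how cells were called. The authors deposited raw UMI counts per gene and barcode, with no normalization. The libraries held 9249, 6065 and 6113 barcodes with 44252421, 46317250 and 38163880 UMIs. Barcodes with at least 300 genes, 500 UMIs and at most 15% mitochondrial UMIs were kept. Scrublet (scanpy 1.11.5) marked 2, 3 and 4 doublets by its automatic threshold, so the highest scores were removed at 0.8% per 1000 cells, which took 681, 284 and 285 cells and left 8542, 5674 and 5682. Cells that met no class (777, 782 and 641) or more than 1 of T, B and dendritic (0, 1 and 28) were not used. UMIs were summed per class and library and divided by all UMIs of the class, as CPM. Intervals are exact: Poisson for levels, conditional binomial for ratios and quotients, Clopper-Pearson for shares (scipy 1.17.1). The counting steps were tested on simulated data. Members at 20 CPM or more in a class with at least 50 cells were named with values, together with the regulators; the other 15 were at most at 13.2 CPM. Start regions came from a RefSeq table (GRCm38.p6). The members, lists and motifs were chosen with earlier results of these data known. The values of 1 gene of the list of related genes are not reported here.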

Additional observations from a re-analysis of the deposited data

Results flagged for a closer look

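H2-Oa and H2-Ob, the chains of H2-O, went in opposite directions in macrophages and dendritic cells between the IgG and Matrigel libraries. The ratio of IgG to Matrigel of H2-Oa was 2.88 in macrophages and 0.312 in dendritic cells, and that of H2-Ob was 2.78 and 0.470. The difference between the classes was not tested, as there was 1 library per group. In macrophages H2-Oa rested on 13 and 26 UMIs.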

How the results depend on the processing

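None of the 4 ratios of mesenchymal class I and macrophage class II changed direction under the alternatives run for them. The dendritic class II ratio of antibody to IgG did, from 1.09 to 0.821 without H2-Eb1, while that of IgG to Matrigel went from 0.574 to 0.716. The macrophage H2-D1 ratio of IgG to Matrigel was 1.13 over all cells and 0.771 with the class II-rich IgG cells at 10% H2-Eb1 or more. No paired analysis was possible because each group had 1 library. Of 101 values recomputed, 55 moved by less than their counting interval, or less than 1.5 times for counts, 45 moved by more and 1 reversed; the cause was not tested. The mesenchymal class I ratio of IgG to Matrigel (0.625) became 0.610 with collagen at 2%, 0.606 without doublet removal, 0.595 with cells weighted equally and 0.655 on totals without mitochondrial and ribosomal protein genes; that of antibody to IgG (1.07) became 1.12 at 2% and 1.34 with equal weights. The macrophage class II ratio of IgG to Matrigel (0.695) became 0.677 at 2%, 0.689 without doublet removal, 0.713 with a stricter cell filter, 0.635 with equal weights, 0.725 with every Csf1r or Adgre1 cell included and 0.859 without H2-Eb1; that of antibody to IgG (0.941) became 0.980 with equal weights and 0.748 without H2-Eb1. The alternatives without H2-Eb1 and in class II-rich cells were chosen after seeing the data.

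Members past the fold numbered 13 and 10 in mesenchymal cells and 17 and 9 in macrophages, for IgG over Matrigel and antibody over IgG. At a fold of 2 they numbered 4, 2, 10 and 5, that is 4 of 29, 2 of 29, 10 of 32 and 5 of 33 measured, where 22.6%, 11.1%, 13.6% and 8.81% of all genes were. From 50 UMIs the antibody over IgG counts were 6 of 24 and 5 of 28, where 16.3% and 11.8% of all genes were. Against H2-Eb1-low class II-rich IgG cells the macrophage count was 4 of 29, where 19.3% were. Thinned to 2000 UMIs, the share with a class II UMI was 12.5% (Matrigel) and 8.92% (IgG) of mesenchymal cells, 74.5%, 69.4% and 67.8% of macrophages, 100% of B cells and 12.9% of antibody library T cells. Dendritic levels with 3 markers (107, 77 and 49 cells) were 3341, 5201 and 4206 CPM for class I, 33401, 22271 and 26384 for class II and 1386, 1687 and 1407 for the immunoproteasome. Without Csf1r or Adgre1 (146, 88 and 47 cells) class I was at 3498 (Matrigel) and 4328 (IgG) CPM, class II at 33129, 16846 and 18707, and the immunoproteasome at 1418 (IgG) and 1363 (antibody). With 1 library per group, the spread between animals is not measured.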
